A study of Homo sapiens with 10 samples.

Results

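The p53 target genes CDKN1A, MDM2, SESN1, SESN2, GDF15, PHLDA3, FAS, RRM2B and ZMAT3 were followed through bulk RNA sequencing of human embryonic stem cells. They were chosen by symbol and matched to Ensembl identifiers, and all 9 of 9 were found among the 55841 gene identifiers counted. All 9 also passed the filter on low counts, which left 23552 genes tested.

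The cells were of the line that the labels call HES9, grown in mTeSR1 medium on Matrigel without feeder cells, and none of them carries a named genetic change. The general population was the whole culture, not sorted. The HHH fraction was sorted by flow cytometry from such cultures for the highest levels of the surface antigens GCTM-2, CD9 and EPCAM. Each population gave 5 libraries, 2 in batch 1 and 3 in batch 2, and the question was how the sorted fraction differs from the culture it came from. The labels do not say whether replicates came from separate cultures, so the p-values measure the spread between these libraries, which may be technical. HHH cells went through sorting and general cells did not, so the sort itself and the choice by antigen cannot be told apart. Whether the general cells were dissociated or stained is not stated. The design text mentions treatment with an inhibitor of protein kinase C that no label carries, and the study's text names WA09 where the labels name HES9.

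p53 is a transcription factor that is kept low in unstressed cells because MDM2, itself a p53 target, marks it for degradation. When DNA damage or other stress stabilizes p53, it binds paired repeats of a short motif near its targets and raises their transcription. The targets act at different steps: p21, the product of CDKN1A, inhibits cyclin-dependent kinases; FAS is a death receptor; PHLDA3 restrains AKT signalling; the sestrins SESN1 and SESN2 restrain mTORC1 and limit oxidative damage; RRM2B supplies deoxyribonucleotides; ZMAT3 is an RNA-binding protein; GDF15 is a secreted stress cytokine. Human pluripotent stem cells are known for a short G1 phase and for ready apoptosis after damage.

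A p53 motif was looked for in the RefSeq promoter windows (GRCh38.p14), which run from 250 bases before to 50 bases after a start. The motif was 1 repeat of the p53 response element, a consensus of 10 bases, read on both strands (its reverse complement is the same pattern). Windows were found for 7 of the 9 genes, not for PHLDA3 and RRM2B. The motif lay in 2 of their 15 windows (13.3%), against 2329 of 35116 windows of all genes (6.63%). The matches belonged to FAS and SESN1, and DDB2, from a wider list of p53 targets described further on, held 2 repeats 1 base apart. Such a full site, with a spacer of at most 13 bases, was found in 10 of all windows (0.0285%). These 3 stretches are shown because they lie in p53 targets whose transcripts were measured here, with the bases that match in capitals.
FAS: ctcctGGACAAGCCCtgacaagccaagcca
SESN1: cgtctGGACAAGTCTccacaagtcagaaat
DDB2: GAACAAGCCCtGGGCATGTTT
The FAS stretch is at chr10:88991304-88991333 on the plus strand, and its match begins 122 bases before a start. It lies inside the gene: 46 of the 61 GENCODE transcripts of FAS span it, with 8 annotated exons overlapping it. The SESN1 stretch is at chr6:109009013-109009042 on the minus strand, with the match beginning 49 bases before a start. It is intronic in the 2 of 7 SESN1 transcripts that span it. The 10 bases that follow each capital run match the same pattern at 8 of 10 positions in FAS and at 7 of 10 in SESN1. The DDB2 site is at chr11:47214979-47214999 on the plus strand and begins at base 6, counting the start as base 1. It overlaps 2 annotated exons, in their untranslated part, while 4 of the 16 DDB2 transcripts span it. No match was found in the windows of CDKN1A, MDM2, SESN2, GDF15 and ZMAT3, which says only that these letters are not in those windows.

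Depth ran from 47242595 to 78503395 counts per library, so that 3 counts corresponded to 0.0460 to 0.0687 CPM (counts per 1e6 after TMM scaling of the library sizes). All 7 pluripotency markers read were expressed, POU5F1 at a mean of 516.2 CPM in general and 569.8 CPM in HHH. Over both batches 1 of the 7 rose in HHH, 1 fell and 5 did not pass at an adjusted p under 0.05 (edgeR). Of all tested genes 1.94% rose and 3.89% fell. The log2 fold changes of the 7 ran from -0.26 to 0.44, with 4 negative in batch 1 and 2 in batch 2. EPCAM, a sort antigen, was higher in HHH by 0.41 on the log2 scale (adjusted p = 0.00645), while CD9 was at 0.29 (adjusted p = 0.195; both edgeR). One library stood apart for p53 targets. General batch 1 replicate 1 had the highest level of all 10 libraries for 9 of the 9 genes, and for 57.1% of 42 other p53 targets, whereas it was the highest for 11.8% of all tested genes. Against general batch 1 replicate 2 it was higher for 9 of 9 genes, with a median difference of 1.13 on the log2 scale, compared with -0.00425 over all tested genes. The fold changes of the 9 genes over both batches are therefore given with and without it.

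Between HHH and general over both batches, 3 of the 9 genes fell and 0 rose at an adjusted p under 0.05 (edgeR quasi-likelihood F test with batch as a term, adjusted over all tested genes). Of all tested genes 3.89% were lower, 1.94% were higher and 5.83% passed in either direction. The genes that fell were CDKN1A, PHLDA3 and FAS, each by more than 1.5-fold. The fitted value was negative for all 9, although RRM2B, at -0.03, was at 0.17 in the fit that blocked on replicate number within each batch. The 9 had a median of -0.42 on the log2 scale, against 0.02 over all tested genes. SESN1 and ZMAT3 had unadjusted p-values under 0.05, and no gene had a positive value. In these bulk samples, fewer cells that express a gene and less RNA per cell cannot be told apart. Without general batch 1 replicate 1, CDKN1A, PHLDA3 and FAS still passed, the median was -0.20 (0.01 over all tested genes), and 8 of the 9 values were negative.

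**Figure D1:**
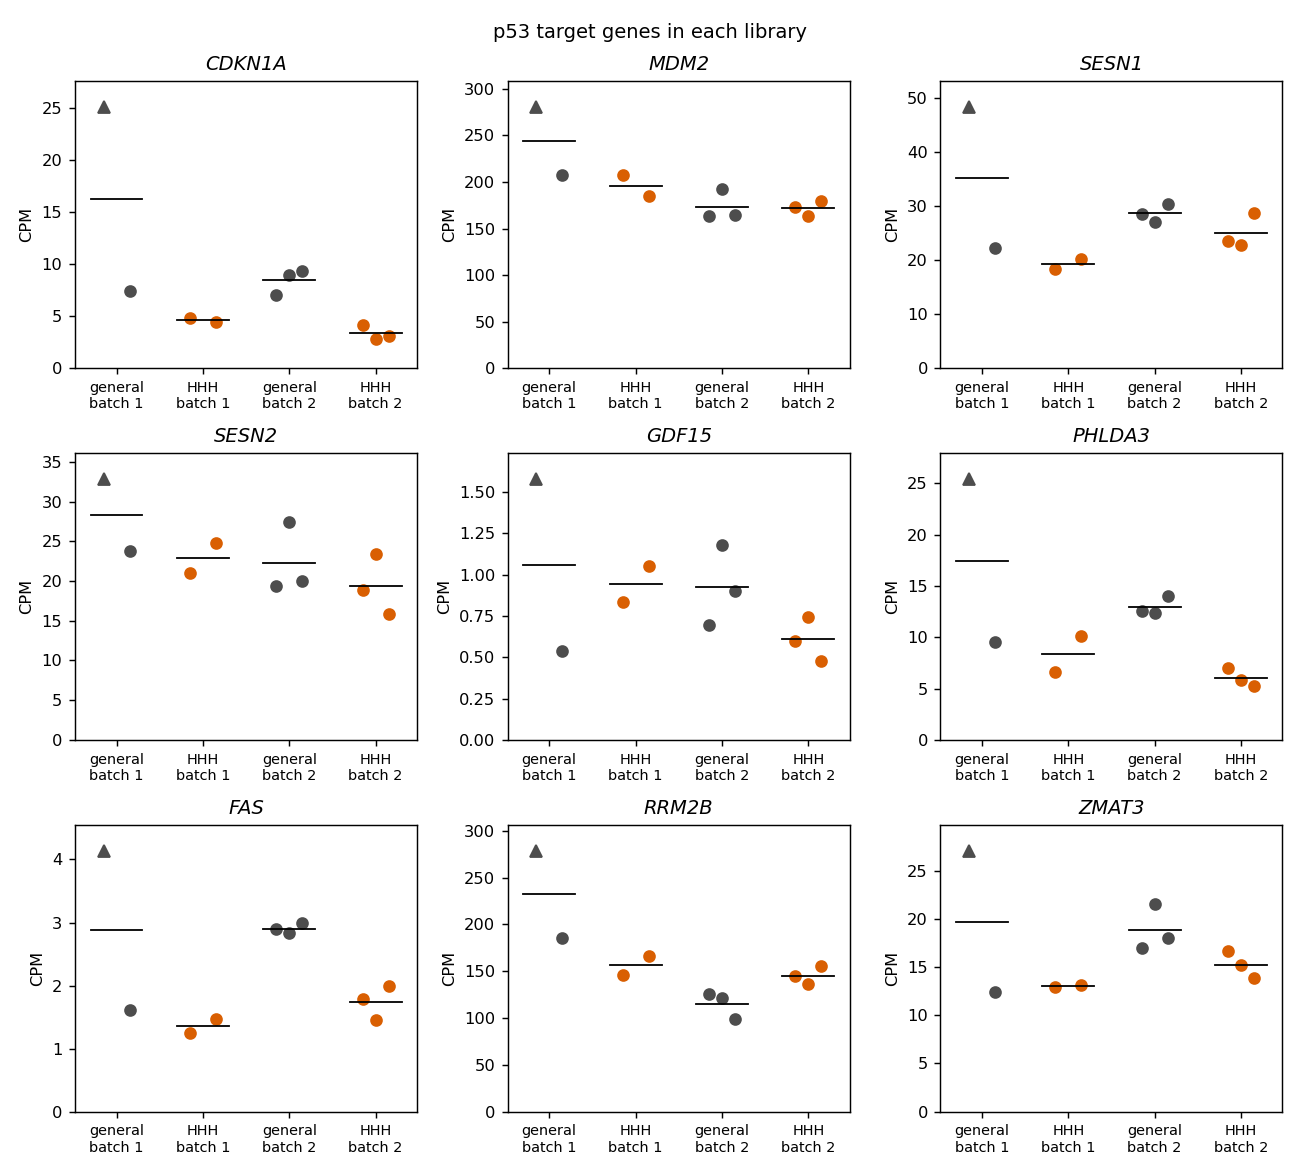
Level of each of the 9 p53 target genes in CPM (linear axis from 0) in the 10 libraries; grey points are general, orange points HHH, the triangle is general batch 1 replicate 1 and bars are means of a population in a batch. The triangle is the highest point in all 9 panels, and HHH lies below general in both batches for CDKN1A and FAS.

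CDKN1A, the cell cycle inhibitor, differed most. In batch 1 it was at 25.1 and 7.40 CPM in general replicates 1 and 2 and at 4.87 and 4.39 CPM in HHH replicates 2 and 3. In batch 2 it was at 7.08, 8.97 and 9.37 CPM in the general libraries and at 4.11, 2.78 and 3.13 CPM in the HHH libraries. All 5 HHH libraries lay below all 5 general libraries. General averaged 11.6 ± 7.63 CPM and HHH 3.86 ± 0.873 CPM (SD, 5 libraries each). The fitted log2 fold change was -1.53 (SE 0.253, adjusted p = 0.00212, edgeR), or 2.90-fold lower, with a 95% interval of -2.08 to -0.99. Leaving out general batch 1 replicate 1 gave -1.14 (SE 0.156, adjusted p = 0.00076, edgeR).

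PHLDA3, the restrainer of AKT, came next. In batch 2 the general libraries held 12.5, 12.4 and 14.1 CPM, and the HHH libraries 6.97, 5.79 and 5.23 CPM. In batch 1 the general libraries held 25.4 and 9.51 CPM and the HHH libraries 6.58 and 10.1 CPM. The populations were apart in batch 2 and overlapped in batch 1, where HHH replicate 3 exceeded general replicate 2. The log2 fold change was -1.09 (SE 0.206, adjusted p = 0.00527, edgeR), and -0.84 (adjusted p = 0.0133, edgeR) without general batch 1 replicate 1. PHLDA3 shares 18.4% of its annotated exon bases with another gene, so some of its counts are uncertain.

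FAS, the death receptor, was a low transcript with 58 to 270 counts per library. In batch 1 the general libraries held 4.14 and 1.61 CPM and the HHH libraries 1.24 and 1.47 CPM. In batch 2 the general libraries held 2.90, 2.83 and 2.99 CPM, and the HHH libraries 1.79, 1.45 and 2.00 CPM. HHH was below general within each batch, although general batch 1 replicate 2 fell within the range of the HHH libraries of batch 2. The log2 fold change was -0.87 (SE 0.210, adjusted p = 0.0243, edgeR), and -0.60 (adjusted p = 0.034, edgeR) without general batch 1 replicate 1. The call ended without any one of 4 other libraries: HHH batch 1 replicate 2 (adjusted p = 0.0681), HHH batch 2 replicate 1 (0.0531), HHH batch 2 replicate 2 (0.0711) and general batch 2 replicate 3 (0.056). It was at the threshold without general batch 2 replicate 1 (adjusted p = 0.04997).

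SESN1 and ZMAT3 were negative in both batches without passing the test. SESN1 was at 48.4 and 22.2 CPM in general and 18.4 and 20.2 CPM in HHH in batch 1. In batch 2 it was at 28.6, 27.1 and 30.4 CPM in general and 23.6, 22.8 and 28.8 CPM in HHH. HHH was lower throughout batch 1 and overlapped general in batch 2. Its log2 fold change was -0.46 (SE 0.178, adjusted p = 0.152, edgeR), with a 95% interval of -0.84 to -0.08, and -0.20 (adjusted p = 0.225) without general batch 1 replicate 1. For ZMAT3 the general libraries held 27.1 and 12.4 CPM in batch 1 and 16.95, 21.5 and 18.0 CPM in batch 2. The HHH libraries held 12.9 and 13.1 CPM in batch 1 and 16.7, 15.2 and 13.8 CPM in batch 2. Here the order was the other way round, with overlap in batch 1 and separation in batch 2. The log2 fold change of ZMAT3 was -0.42 (SE 0.161, adjusted p = 0.15, edgeR), and -0.19 (adjusted p = 0.317) without general batch 1 replicate 1. ZMAT3 passed without general batch 1 replicate 2, at -0.54 (adjusted p = 0.0268). With the GC trend removed and the replicate block together SESN1 passed, at -0.29 (adjusted p = 0.015).

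MDM2, the feedback inhibitor of p53, was one of the most abundant of the 9 and did not pass in either batch. It was at 280.4 and 207 CPM in the general libraries and 207.2 and 184.6 CPM in the HHH libraries of batch 1. In batch 2 general ran from 163.2 to 192.3 CPM and HHH from 163.2 to 179.4 CPM, so the populations overlapped fully. The log2 fold change was -0.13 (SE 0.0971, adjusted p = 0.463, edgeR), with a 95% interval of -0.34 to 0.07. Within batch 2 the value was -0.01 (SE 0.113), and over both batches without general batch 1 replicate 1 it was -0.03 (adjusted p = 0.859). MDM2 shares 14.7% of its exon bases with other annotated genes on either strand.

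SESN2 and GDF15, which also respond to ATF4 when amino acids are short or proteins misfold, overlapped between the populations in both batches. SESN2 ran from 19.3 to 32.8 CPM in general (median 23.8) and from 15.9 to 24.8 CPM in HHH (median 20.99). Its log2 fold change was -0.24 (SE 0.129, adjusted p = 0.299, edgeR), and -0.16 (adjusted p = 0.528) without general batch 1 replicate 1. GDF15 was near 1 CPM, from 0.537 to 1.58 CPM in general and from 0.477 to 1.05 CPM in HHH, with 27 to 103 counts per library. Its log2 fold change was -0.42 (SE 0.269, adjusted p = 0.392, edgeR), and its 95% interval of -0.999 to 0.15 includes 0. For GDF15 the value was -0.20 (adjusted p = 0.728) without general batch 1 replicate 1. GDF15 was lowest among the general libraries in batch 1 replicate 2, below both HHH libraries of that batch.

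RRM2B, a subunit of ribonucleotide reductase, had values of opposite sign in the batches. In batch 1 it was at 278.6 and 185.8 CPM in general and at 146.2 and 166.1 CPM in HHH. In batch 2 it was at 125.9, 121.9 and 98.5 CPM in general and at 144.8, 136.2 and 155.2 CPM in HHH. HHH was thus below general in every library of batch 1 and above it in every library of batch 2. The log2 fold changes were -0.57 (SE 0.166, adjusted p = 0.0936) and 0.33 (SE 0.136, adjusted p = 0.131), and over both batches -0.03 (SE 0.159, adjusted p = 0.942, all edgeR), or 0.15 (adjusted p = 0.49) without general batch 1 replicate 1. The difference between the batches was 0.91 (SE 0.214) with an adjusted p of 0.0714, and 0.59 (adjusted p = 0.26) without general batch 1 replicate 1. Most of the difference in level lay in the general libraries, which fell from a mean of 232.2 CPM in batch 1 to 115.5 CPM in batch 2, while HHH was at 156.1 and 145.4 CPM.

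**Figure D2:**
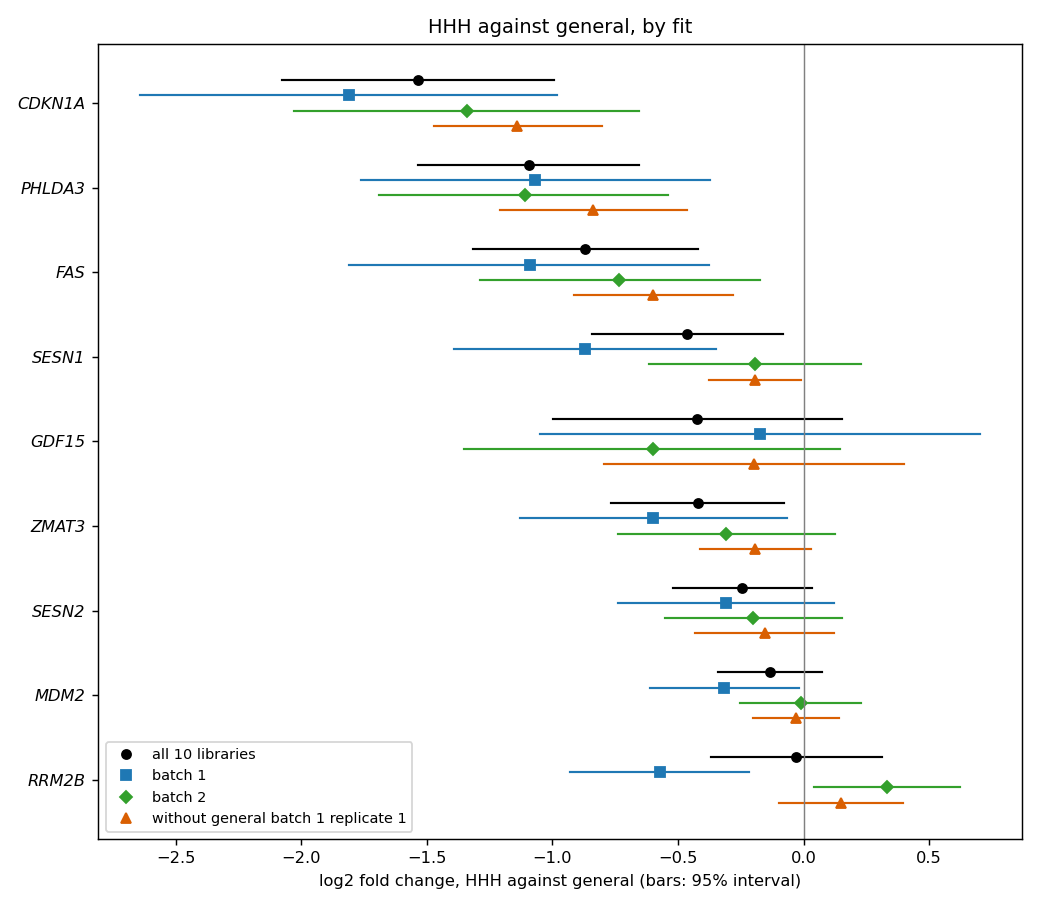
Fitted log2 fold change of HHH against general (horizontal axis) for each gene, with 95% intervals as bars, from all 10 libraries (circles), within batch 1 (squares), within batch 2 (diamonds) and without general batch 1 replicate 1 (triangles). CDKN1A, PHLDA3 and FAS lie to the left of 0 in all 4 fits, and RRM2B lies left of 0 in batch 1 and right of 0 in batch 2.

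Within batches, 1 of the 9 genes (CDKN1A) was lower in batch 1, where 1.02% of all tested genes were. In batch 2, CDKN1A and PHLDA3 were lower, 2 of 9, against 5.65% of all tested genes lower and 3.83% higher. For CDKN1A the log2 fold change was -1.81 (SE 0.388, adjusted p = 0.0255) in batch 1 and -1.34 (SE 0.321, adjusted p = 0.0191) in batch 2. The batch 1 value depended on general replicate 1: it was -0.67 (adjusted p = 0.319) without that library. It also lost its call without HHH batch 1 replicate 2 (adjusted p = 0.101) or replicate 3 (0.077). In batch 2 both CDKN1A and PHLDA3 missed the threshold without HHH replicate 2 (adjusted p = 0.063 and 0.0553), HHH replicate 3 (0.0973 and 0.106) or general replicate 3 (0.0855 and 0.0886), with values of -1.03 or lower on the log2 scale throughout. PHLDA3 was at -1.07 (adjusted p = 0.107) in batch 1 and -1.11 (adjusted p = 0.0198) in batch 2. FAS was at -1.09 (adjusted p = 0.11) and -0.73 (adjusted p = 0.0889). The batch 1 values of PHLDA3 and FAS also rested on general replicate 1, and were -0.19 (adjusted p = 0.853) and -0.25 (adjusted p = 0.815) without it. SESN1 and ZMAT3 in batch 1 went from -0.87 and -0.60 to -0.20 and 0.08 (adjusted p = 0.743 and 0.927). All p-values within batches are from edgeR.

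Complete separation of the populations was common among all genes. In batch 1 all HHH libraries lay below all general libraries for 4 of the 9 (CDKN1A, SESN1, FAS and RRM2B), where 21% of all tested genes did so. In batch 2 they did for 4 of the 9 (CDKN1A, PHLDA3, FAS and ZMAT3), against 18.2%, and RRM2B lay above, as did 18.1% of all tested genes. The difference between the batches passed the test for 0 of the 9 genes in edgeR, against 0.777% of all tested genes. SESN1 and RRM2B had unadjusted p-values under 0.05 for it, 0.0479 and 0.000816. DESeq2 called 1 of the 9, RRM2B (adjusted p = 0.00204), and limma voom called 0. Leaving out general batch 1 replicate 2 leaves replicate 1 as the only general library of batch 1. The differences of SESN1 and RRM2B were then 1.13 and 1.17, while without general batch 1 replicate 1 they were 0.01 and 0.59.

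Per unit of transcript length, the 9 genes fell into 4 tiers. On the deposited log2 RPKM scale, from which batch means had been removed, RRM2B had the highest mean level at 4.79 ± 0.409 (SD, n = 10), next to MDM2 at 4.57 ± 0.285. SESN2 at 2.70, SESN1 at 2.32 and PHLDA3 at 2.28 formed the middle. CDKN1A at 1.18 and ZMAT3 at 0.72 came below them, and GDF15 at -0.56 and FAS at -0.82 were the lowest. Only the steps from MDM2 to SESN2 (1.87), from PHLDA3 to CDKN1A (1.1) and from ZMAT3 to GDF15 (1.28) exceeded the SD of both neighbours, so the order of the others is not resolved. The genes that fell in HHH were therefore not the most abundant of the set.

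Between libraries, PHLDA3 and FAS followed CDKN1A most closely. As a description over 10 libraries, with batch means removed, Pearson's r of log2(CPM + 0.1) with CDKN1A was 0.958 for FAS, 0.947 for PHLDA3, 0.886 for ZMAT3 and 0.836 for SESN1. Without general batch 1 replicate 1 it was 0.912, 0.901, 0.757 and 0.632 over 9 libraries. MDM2 went from 0.71 to 0.238 and RRM2B from 0.274 to -0.61 when that library was left out. The libraries share their population, their batch and their handling, so these values do not separate 1 source of variation from another. Among 12084 genes with at least 5 CPM, the 5 whose profiles over the 10 libraries were most like that of CDKN1A were TPP1 (r = 0.973), SORBS2 (0.962), BBC3 (0.96), SYNDIG1 (0.956) and TAP1 (0.952). Those most like MDM2 were ETHE1 (0.945), SPATA6 (0.943), BBS9 (0.926), RAB38 (0.926) and EIF3LP2 (0.925). Both sets of 5 were drawn with general batch 1 replicate 1 included and were not drawn again without it.

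Among 14 tested regulators of p53, 2 fell and 0 rose, against 3.89% and 1.94% of all tested genes. They were SIRT1, a deacetylase of p53, at -0.36 (adjusted p = 0.0033), and TP53BP1, a DNA damage adaptor, at -0.26 (adjusted p = 0.0436, both edgeR). The SIRT1 call was kept without each of the 10 libraries in turn, and that of TP53BP1 without 1 of them. With the replicate block TP53BP1 was at -0.29 (adjusted p = 0.0633). MDM4, which holds p53 inactive together with MDM2, was at 0.09 (adjusted p = 0.549), and the kinases ATM and ATR were at -0.16 and 0.05 (adjusted p = 0.206 and 0.743).

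The wider list of p53 targets held 42 tested genes, of which 13 fell and 1 rose. The median log2 fold change was -0.23 and 36 of the 42 values were negative. Over all tested genes the median was 0.02, 11071 of 23552 values were negative, 3.89% fell and 1.94% rose. With general batch 1 replicate 1 left out, 11 fell and 2 rose, 34 values were negative and the median was -0.16. In that fit 3.29% of all tested genes fell and 1.44% rose, 11341 of 23916 values were negative and the median was 0.01. The list was written with earlier results of these data known, so its count is not independent evidence of a direction.

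Among 9 cell cycle targets, BTG2, an antiproliferative factor, fell by 1.00 on the log2 scale (adjusted p = 0.00732), from 5.02 ± 1.54 to 2.50 ± 0.296 CPM. RPRM fell by 0.53 (adjusted p = 0.00515). SFN, which encodes 14-3-3 sigma and was near 2 CPM, rose by 0.58 (adjusted p = 0.0201), and 6 did not pass. Of 14 apoptosis targets, 4 fell and 0 rose, where 3.89% of all tested genes fell and 1.94% rose. BBC3, which encodes PUMA, fell by 0.68 (adjusted p = 0.00969), PIDD1 by 0.59 (adjusted p = 0.0065), TP53INP1 by 0.57 (adjusted p = 0.0381) and BAX by 0.35 (adjusted p = 0.0354, all edgeR). PMAIP1, which encodes NOXA, had the opposite sign, at 0.36 (adjusted p = 0.0613), and passed without general batch 1 replicate 1 at 0.43 (adjusted p = 0.0325). Without that library BAX lost its call, at -0.25 (adjusted p = 0.0611), and TP53INP1 was at -0.36 (adjusted p = 0.0249). Both kept their call in 3 of the 10 fits that leave out a library, and SFN in 6.

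Of 19 targets in DNA repair, metabolism and autophagy, 7 fell and 0 rose, against 3.89% and 1.94% of all tested genes. TRIM22, an antiviral ubiquitin ligase, fell most, by 1.05 on the log2 scale (adjusted p = 0.00209), from 39.3 ± 13.7 to 19.4 ± 7.004 CPM. SPATA18, which acts in mitochondrial quality control, fell by 0.99 (adjusted p = 0.0063), and DRAM1, an autophagy gene, by 0.67 (adjusted p = 0.0354). DDB2, the damage sensor whose full site is printed above, fell by 0.60 (adjusted p = 0.00698), and POLH, a translesion polymerase, by 0.58 (adjusted p = 0.016). SUSD6 fell by 0.59 (adjusted p = 0.0172) and FDXR by 0.47 (adjusted p = 0.0461, all edgeR). FDXR lost its call without general batch 1 replicate 1, at -0.32 (adjusted p = 0.0887), and DRAM1 was then at -0.44 (adjusted p = 0.028). Of the 10 fits that leave out a library, FDXR passed in 2, DRAM1 in 5 and POLH in 9.

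**Figure D3:**
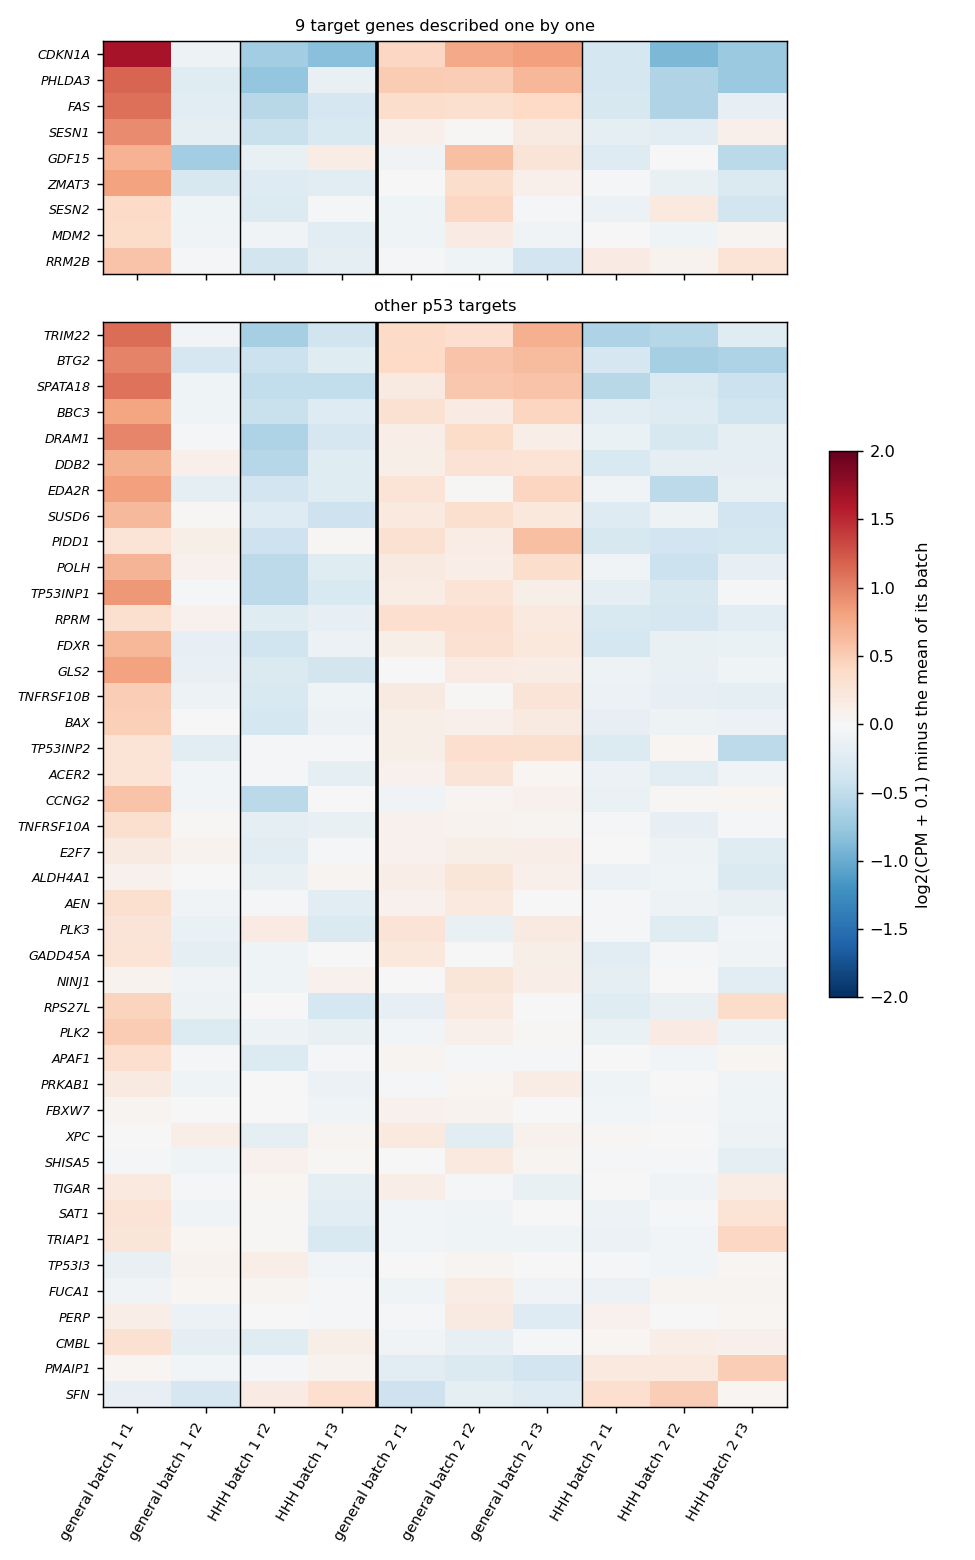
Level of the 9 genes (upper block) and of 42 other p53 targets (lower block) in each library, as log2(CPM + 0.1) minus the mean of its batch, with genes ordered by fold change and a heavy line between the batches. Red is above and blue below the batch mean; the leftmost column, general batch 1 replicate 1, is reddest for most genes, and in batch 2 the 3 general columns are red and the 3 HHH columns blue for the upper rows of each block.

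Genes listed as repressed by p21 through the DREAM complex had mostly positive values. Of 13 tested, 2 rose and 0 fell, and 10 values were positive with a median of 0.19. Over all tested genes 1.94% rose, 3.89% fell and 12481 of 23552 values were positive. The median of the list was 0.04 in batch 1, with 5 negative values, and 0.21 in batch 2, with 3. Whether p21 has a part in these values was not tested. CDK1, the mitotic kinase, rose by 0.53 (adjusted p = 0.00352), from 154.9 ± 45.3 to 219.8 ± 37.6 CPM, and AURKA by 0.27 (adjusted p = 0.0341). CCNB1 was at 0.29 (adjusted p = 0.0617), and MKI67 at -0.18 (adjusted p = 0.438, all edgeR). The CDK1 call was kept without each library in turn, and that of AURKA without 3 of 10. AURKA was at 0.30 (adjusted p = 0.0527) with the replicate block.

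SESN2 and GDF15 were set beside 12 genes of the ATF4 stress response, of which 4 rose and 0 fell. Of all tested genes 1.94% rose and 3.89% fell. CEBPB rose by 0.61 (adjusted p = 0.00777), SLC7A11, a cystine transporter, by 0.41 (adjusted p = 0.0416), PSAT1, of serine synthesis, by 0.35 (adjusted p = 0.0299) and VLDLR by 0.28 (adjusted p = 0.0489, all edgeR). ATF4 itself was at 0.08 (adjusted p = 0.653). The replicate block left VLDLR at 0.23 (adjusted p = 0.109). Under the block ASNS and TRIB3 passed as higher, at 0.45 and 0.39 (adjusted p = 0.0211 and 0.0223), and DDIT4 as lower, at -0.39 (adjusted p = 0.0124). After general batch 1 replicate 1 was left out, 3 passed, CEBPB, PSAT1 and ASNS. Sorted cells also went through the sort, and 10 immediate early genes were read. Of these 1 fell, 1 rose and 8 did not pass, against 3.89% lower and 1.94% higher among all tested genes, and 7 values were negative. EGR1 fell by 1.19 (adjusted p = 2.88e-04) and IER3 rose by 0.74 (adjusted p = 4.32e-05, both edgeR). FOS, JUN and ATF3 did not pass, at -0.36, -0.05 and -0.08. The part of the sort in the levels of p53 targets was not tested.

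Paralogs and partners of the 9 genes were read as well. Of 11 tested, 2 fell and 1 rose, against 3.89% and 1.94% of all tested genes. SESN3, a sestrin that answers to FOXO factors, fell by 0.76 (SE 0.0884, adjusted p = 1.27e-04), from 167.2 ± 37.2 to 97.8 ± 12.7 CPM, and was below general in both batches. CDKN1C, which encodes p57, fell by 0.35 (adjusted p = 0.0473), or was at -0.37 (adjusted p = 0.06) without general batch 1 replicate 1, and CDKN1B, which encodes p27, was at -0.05 (adjusted p = 0.827). FADD, the adaptor of FAS, rose by 0.32 (adjusted p = 0.0162, all edgeR), with 59.2% of its exon bases shared with another gene and a value of 0.27 (adjusted p = 0.0551) under the replicate block. FASLG, the ligand of FAS, had 0 counts in all 10 libraries. RRM2, the replicative counterpart of RRM2B, was at 0.25 (adjusted p = 0.087).

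**Figure D4:**
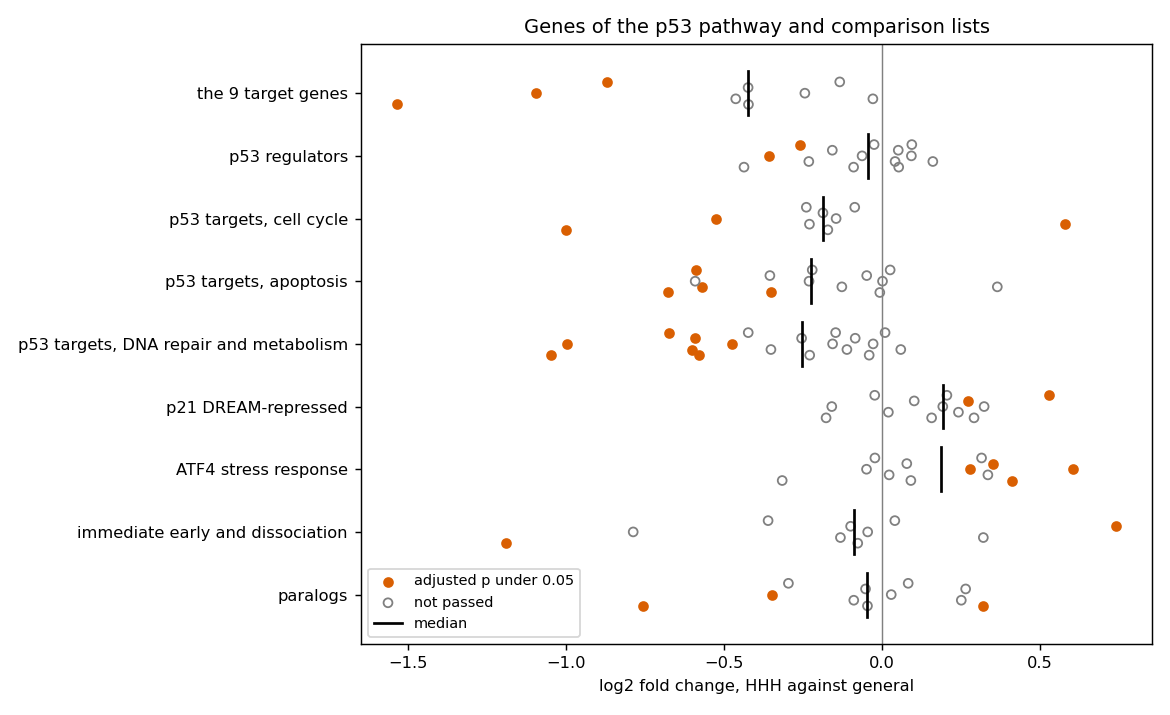
Fitted log2 fold change of HHH against general (horizontal axis) for each tested gene of the 9 target genes and the 8 lists read beside them; filled points passed at an adjusted p under 0.05, open points did not, and vertical bars are medians. The 3 lists of p53 targets have medians left of 0 and the DREAM and ATF4 lists right of 0.

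Of the markers of other cell types, most of the neural ones fell, where 3.89% of all tested genes did. Neural markers fell for 5 of 6 (LHX5, LIX1, ZIC1, HESX1 and SOX1), and their summed level ran from 16.9 to 28.2 CPM in general and from 4.63 to 7.33 CPM in HHH, while PAX6 was at -0.15 (adjusted p = 0.665). Of 6 fibroblast markers 3 were tested, with log2 fold changes from -0.94 to 0.34 and a median of -0.28. COL1A1 fell by 0.94 (adjusted p = 0.00334, edgeR), 2 did not pass, and the levels of the defining genes LUM and DCN were at or near 0. Within batches, 0 of the 3 were lower in batch 1 and 2 in batch 2. In batch 1 the summed fibroblast level ran from 116 to 125 CPM in general and from 103 to 119 CPM in HHH, which overlap. In batch 2 it ran from 134 to 139 CPM in general and from 79.5 to 101 CPM in HHH. Of 7 mesendoderm markers 1 was high enough to test, MIXL1 at 0.33 (adjusted p = 0.363). Whether cells carrying these markers account for any of the CDKN1A, PHLDA3 or FAS counts was not tested.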

How the data were processed

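RNA of 10 libraries (5 general, 5 HHH) was sequenced, and the population, batch and replicate of each were taken from its title. The authors deposited whole counts per Ensembl gene, without normalization, and a second table of log2 RPKM values after TMM scaling, a score that the authors had also freed of batch means and left empty where a count was 0. The submitters' processing notes name CASAVA 1.8.2, R 3.2.2, limma 3.26.9 and GRCh37. The aligner and counting tool are not given in the sources used here. Counts were fitted with edgeR 4.0.16 in R 4.3.3: filterByExpr (minimum count 10), TMM scaling, quasi-likelihood F test, two-sided, batch as an additive term, with Benjamini-Hochberg adjustment over 23552 genes. Within-batch effects and their difference came from 1 nested fit of all 10 libraries. The SE was the size of the log2 fold change divided by the square root of F. The common biological coefficient of variation was 0.128. The code was tested on simulated data. Symbols, coordinates (1-based) and exon overlap came from GENCODE 44 (GRCh38), and 94% of tested genes matched. 1 gene of the regulator list is not reported here. SCO2 had no matching identifier, and TP63 and FASLG did not pass the filter.

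The members and gene lists were chosen with earlier results of these data known. Genes named were the 9, every listed gene that passed, and the 5 genes most like CDKN1A and MDM2. PMAIP1, MDM4, ATM, ATR, CCNB1, MKI67, ATF4, ASNS, TRIB3, DDIT4, FOS, JUN, ATF3, CDKN1B, RRM2, FASLG, EPCAM, CD9 and markers of cell types were named after their values were seen. Replicate numbers pair 4 libraries of each population within a batch: the correlations of the paired libraries' deviations from their group means ran from 0.113 to 0.239, and those of pairs with different numbers in batch 2 from -0.126 to -0.00512. In batch 1 the pair of general replicate 1 and HHH replicate 3 was at 0.113, and the other pairs with different numbers at -0.113. Deviations from a group mean sum to 0, so these values depend on each other and do not test the pairing. Alternatives were other scalings, filters and terms, DESeq2 1.42.0, limma 3.58.1 with voom or on the deposited log2 values, GC correction, a stricter threshold, and each library left out.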

Additional observations from a re-analysis of the deposited data

Results flagged for a closer look

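Of the 18 groups of 5 libraries examined (9 genes in each population), 2 held a library far from the others. In both groups it was general batch 1 replicate 1. The rule flags about 1 in 20 groups of independent values from 1 normal distribution. Each group here pools 2 batches, and CDKN1A and PHLDA3 vary together (r = 0.947), so that rate does not apply directly. For CDKN1A it was at 25.1 CPM with the next general library at 9.37 CPM, a gap of 0.873 of the whole range. For PHLDA3 it was at 25.4 CPM with the next at 14.1 CPM, a gap of 0.714 of the range.

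For RRM2B every HHH library lay below the general libraries in batch 1 and above them in batch 2. The difference between the batches' log2 fold changes was 0.906, with an adjusted p of 0.0714 (edgeR) and a range of 2.57e-06 to 0.26 over the alternatives.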

How the results depend on the processing

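Of the 9 genes, 3 passed over both batches, and the count was 2 to 4 without each library in turn. It was 0 with no batch term and 5 with no filter, where SESN1 and ZMAT3 joined, and otherwise stayed within a factor of 1.5. The share of all tested genes that passed is not given for the alternatives in this section. Their counts therefore show only how the calls moved. With no batch term CDKN1A, PHLDA3 and FAS kept values of -1.59, -1.09 and -0.86, with adjusted p-values of 0.0728, 0.103 and 0.153.

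Pathway genes that passed numbered 27, and 15 to 32 without each library, 14 of the 27 keeping their call in all 10 such fits (SIRT1, BTG2, RPRM, BBC3, PIDD1, DDB2, SPATA18, TRIM22, SUSD6, CDK1, CEBPB, EGR1, IER3 and SESN3). The others kept it in 1 to 9. The count was 1 with no batch term, 16 by limma on the deposited log2 values and 13 at an adjusted p under 0.01. Of the other p53 targets, 13 were lower, and 8 to 16 without each library, 0 with no batch term, 7 at an adjusted p under 0.01 and 10 to 16 under the others.

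In batch 1 the count of target genes that passed was 1, 6 with no filter, 3 by DESeq2, 0 by limma voom and 0 with batch 1 alone. It stayed at 1 without each batch 2 library in turn. Leaving out a batch 1 library leaves 1 library of its population there, so no count is given for those fits. Without general batch 1 replicate 2, which leaves replicate 1, CDKN1A was at -2.44 in batch 1, and without replicate 1 at -0.67. In batch 2 the count was 2, and 0 to 3 without each library, 4 with no filter and 4 with batch 2 alone. Both counts of 4 include RRM2B as higher, at 0.356 with no filter (adjusted p = 0.00983) and 0.326 with batch 2 alone (adjusted p = 0.0498, both edgeR). For the difference between batches the count was 0, 2 with no filter and 1 by DESeq2, and stayed at 0 without each batch 2 library in turn.

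RRM2B turned positive with the replicate block (0.168), with the GC trend removed and the block (0.0646), and without general batch 1 replicate 1 (0.149), HHH batch 1 replicate 2 (0.0958) or HHH batch 1 replicate 3 (0.0467), and ran from -0.146 to 0.149 without each library. The cause was not tested for any of these. With the block alone 3 of the 9 genes passed and 26 pathway genes. Among the 9 genes and the 102 tested pathway genes, the block ended the calls of TP53BP1, AURKA, VLDLR and FADD, added TRIB3, ASNS and DDIT4, and changed no other call. The block leaves general batch 1 replicate 1 and HHH batch 1 replicate 3 unpaired, so it draws on the other 8 libraries.

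Depth limits FAS and GDF15 most, with 58 and 27 counts in their lowest libraries, and intervals cover the spread between libraries only.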
